A study of Mus musculus with 12 samples.

Results

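The genes described here are 10 genes of the NRF2 antioxidant and iron-handling response in mouse bone marrow cells, among 22180 named genes on the arrays. They were chosen by symbol, with earlier results of these data known, so the shares of all genes given beside them are descriptions. They are Nfe2l2, which encodes NRF2 itself, and 9 genes known as its targets or linked to iron and haem. These 9 are Slc7a11, Gclc, Gclm, Gsta4, Srxn1, Txnrd1, Nqo1, Hmox1 and Fth1. For a gene with several probe sets the one with the highest mean over all arrays was used. All 10 genes were found, and all lay above the brightness limit of 5.29 on the log2 scale in every array, with 5.90 as the lowest value.

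The samples were LSK cells (Lineage-, SCA1+, cKIT+), a sorted bone marrow fraction enriched for haematopoietic stem and progenitor cells. The 4 groups of 3 arrays were irradiated knockout (KO; Nipa, gene Zc3hc1, deleted), untreated KO, irradiated wild type (WT) and untreated WT. All donors were older than 20 months and came from a background crossed to C57BL/6 for at least 10 generations. Each array carried cells of 3 mice. Cells of every group spent 30 min in medium with serum, IL-3, IL-6 and SCF, received 4 Gy or no radiation, and were harvested after 3 h. The labels number the arrays of each group 1, 2 and 3 and do not say what the number marks or whether pools were shared between doses, so p-values measure the spread between these arrays, which may be partly technical.

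NRF2 is a transcription factor that KEAP1 holds in the cytoplasm and sends to degradation. Oxidants and electrophiles release it, and it then binds antioxidant response elements near its targets with small MAF proteins as partners. BACH1, which is released from DNA by haem, competes for the same elements, and Hmox1, Slc40a1 and the ferritin genes are known for their response to it. The targets import cystine and make glutathione, reduce thioredoxin and quinones, break down haem and store iron.

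Zc3hc1 was low in every KO array, at 5.61 to 5.82 on the log2 scale, against 7.67 to 8.47 in the WT arrays. The sources used here do not say which part of the gene is deleted or where its probes lie. Among markers of LSK cells, 10 had a named probe set (Ly6a, which encodes SCA1, had none), and 9 of these were above the brightness limit in all 12 arrays. The other one, Slamf1, was above it in 10 arrays. Flt3, Meis1 and Hoxa9 fell with irradiation in the average of the genotypes, where 9.6% of all genes fell. Mecom and Procr had higher means after irradiation and were not called. For Mecom these were 8.89 against 8.15 in KO and 9.44 against 8.59 in WT. For Procr they were 9.02 against 8.24 in KO and 8.98 against 8.41 in WT. The values of each array had a median between 5.75 and 5.85. A group mean rests on 3 arrays, which limits the precision. In bulk samples such as these, a change in the share of a cell type and a change of RNA per cell cannot be told apart.

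Promoter sequence was available from RefSeq (GRCm38.p6) for 7 of the 10 genes, as 10 windows from 250 bases before to 50 after a transcript start. Hmox1, Gsta4 and Gclc had no window. The windows were searched on both strands for TGACNNNGC, the core of the antioxidant response element, in which N is any base. It was found in 4 of the 10 windows, belonging to 4 of the 7 genes, and in 12.4% of all 32851 windows of that length. A second spelling of the element, TGAGNNNGC, was searched after the first result was known. It was found in the windows of Srxn1 and Slc7a11, and in 17.6% of all windows. Both spellings occurred in 741 windows and overlapped in 42. A match of letters is a description and not a binding site. The 250 bases before the start are shown 5′ to 3′ on the strand of the gene, for the 5 genes with a match to either spelling, with the matches in capitals.
Nfe2l2, chr2:75704664-75704913, minus strand: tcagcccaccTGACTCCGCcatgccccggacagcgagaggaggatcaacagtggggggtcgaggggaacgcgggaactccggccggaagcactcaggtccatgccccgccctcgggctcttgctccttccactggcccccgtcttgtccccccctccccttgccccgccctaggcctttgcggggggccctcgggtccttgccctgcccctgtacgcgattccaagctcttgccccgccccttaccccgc
Slc7a11, chr3:50443614-50443863, minus strand: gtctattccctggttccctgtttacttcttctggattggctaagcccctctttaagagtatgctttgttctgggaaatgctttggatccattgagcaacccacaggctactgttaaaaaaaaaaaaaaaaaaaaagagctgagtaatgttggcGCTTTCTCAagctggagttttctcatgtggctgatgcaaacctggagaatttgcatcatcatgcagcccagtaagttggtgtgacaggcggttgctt
Gclm, chr3:122245307-122245556, plus strand: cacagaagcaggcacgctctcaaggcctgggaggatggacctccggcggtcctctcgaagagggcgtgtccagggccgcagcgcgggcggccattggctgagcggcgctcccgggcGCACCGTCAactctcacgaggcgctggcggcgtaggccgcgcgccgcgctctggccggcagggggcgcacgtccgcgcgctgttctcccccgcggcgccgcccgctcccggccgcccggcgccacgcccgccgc
Srxn1, chr2:152105274-152105523, plus strand: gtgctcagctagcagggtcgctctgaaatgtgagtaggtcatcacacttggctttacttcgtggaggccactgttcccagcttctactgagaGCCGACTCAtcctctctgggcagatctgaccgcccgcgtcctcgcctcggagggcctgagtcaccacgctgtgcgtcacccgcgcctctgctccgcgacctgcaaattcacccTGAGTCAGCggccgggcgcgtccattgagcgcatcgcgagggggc
Txnrd1, chr10:82858956-82859205, plus strand: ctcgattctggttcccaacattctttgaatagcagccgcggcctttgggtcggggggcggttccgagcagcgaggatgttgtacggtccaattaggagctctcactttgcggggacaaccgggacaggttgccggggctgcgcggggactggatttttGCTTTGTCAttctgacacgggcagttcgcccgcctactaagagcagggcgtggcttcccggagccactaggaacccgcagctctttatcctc
The Txnrd1 window is 1 of 3 for that gene, and the other two had no match. Distances are counted from the transcript start. The match of Nfe2l2 began at -240, that of Gclm at -134, that of Txnrd1 at -92 and that of Slc7a11, in the second spelling, at -97. Both capital stretches of Srxn1 are in the second spelling, the first beginning at -158. Its match to TGACNNNGC lay after the start, at position 29, in the following stretch.
Srxn1, chr2:152105542-152105570, plus strand: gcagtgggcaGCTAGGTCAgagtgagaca

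**Figure D1:**
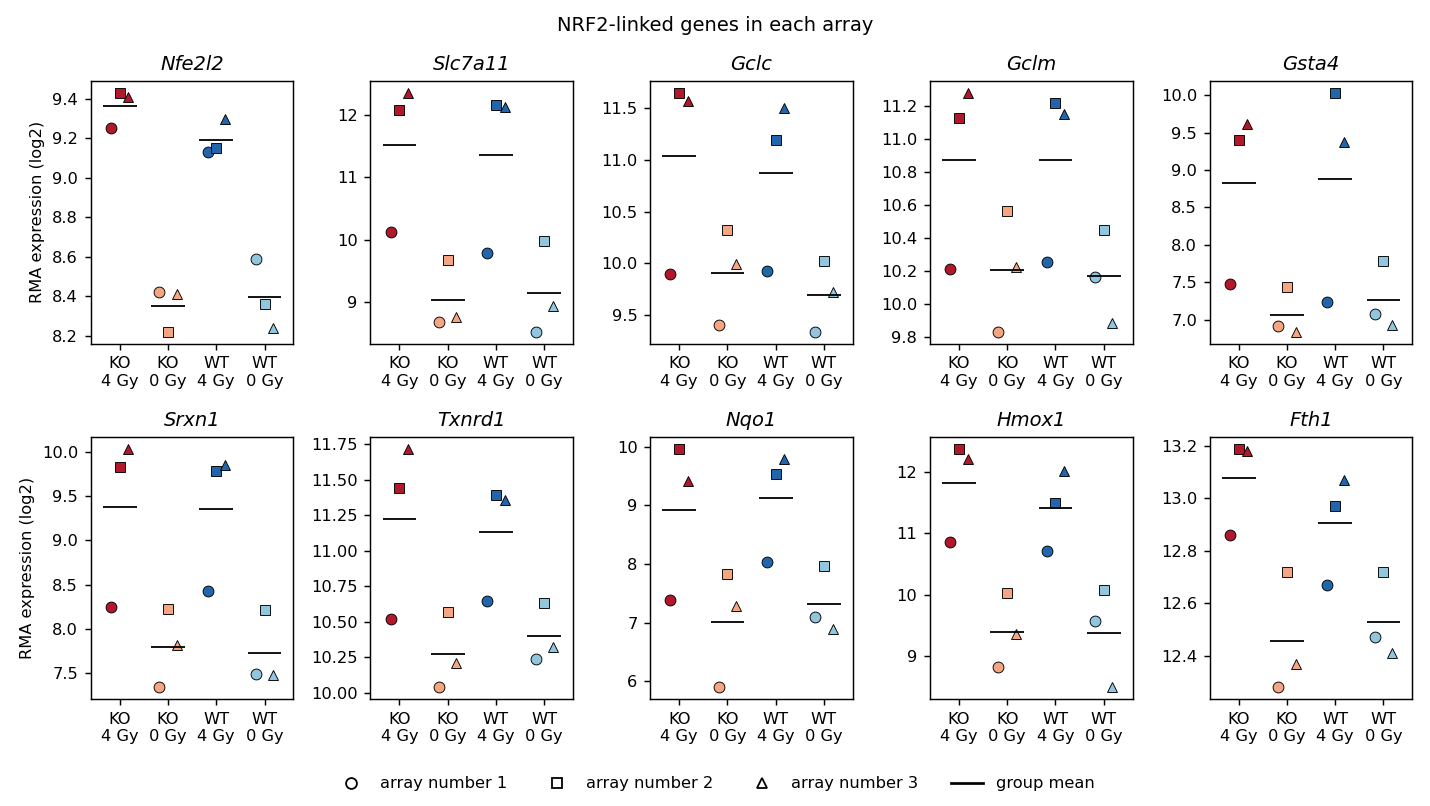
Log2 RMA expression (vertical axes, each gene on its own scale) of the 10 genes in every array, by group on the horizontal axes, with lines for group means and circles, squares and triangles for array numbers 1, 2 and 3. Irradiated arrays 2 and 3 stand well above array 1 in both genotypes for 8 genes, less so for Fth1, whereas Nfe2l2 has its 6 irradiated arrays close together and above all 6 untreated ones.

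All 10 genes had higher mean values in irradiated than in untreated cells in both genotypes, by a median of 1.36 on the log2 scale in KO cells and 1.40 in WT cells. The median over all 15348 genes tested was -0.02 in KO and 0.00 in WT. In a fit of limma over all genes and all 12 arrays, with p-values adjusted by Benjamini-Hochberg, 3 of the 10 genes rose in KO cells (Nfe2l2, Hmox1 and Fth1) and 2 in WT cells (Nfe2l2 and Hmox1). Among all genes tested, 2.74% rose in KO and 2.13% in WT. With the irradiation effects of both genotypes averaged, 9 of the 10 genes rose, all but Gclm, against 6.9% of all genes. None of the 10 fell in any of these comparisons, in which 3.2%, 2.7% and 9.6% of all genes fell. At an unadjusted p under 0.05, 9 of the 10 were higher in KO, 10 in WT and 10 in the average, against 19.9%, 19.8% and 30.1% of all genes in either direction. Irradiated and untreated arrays did not overlap for 6 of the 10 in KO, where 10.2% of all genes stood apart in this direction, and for 5 in WT, against 11.4%.

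**Figure D2:**
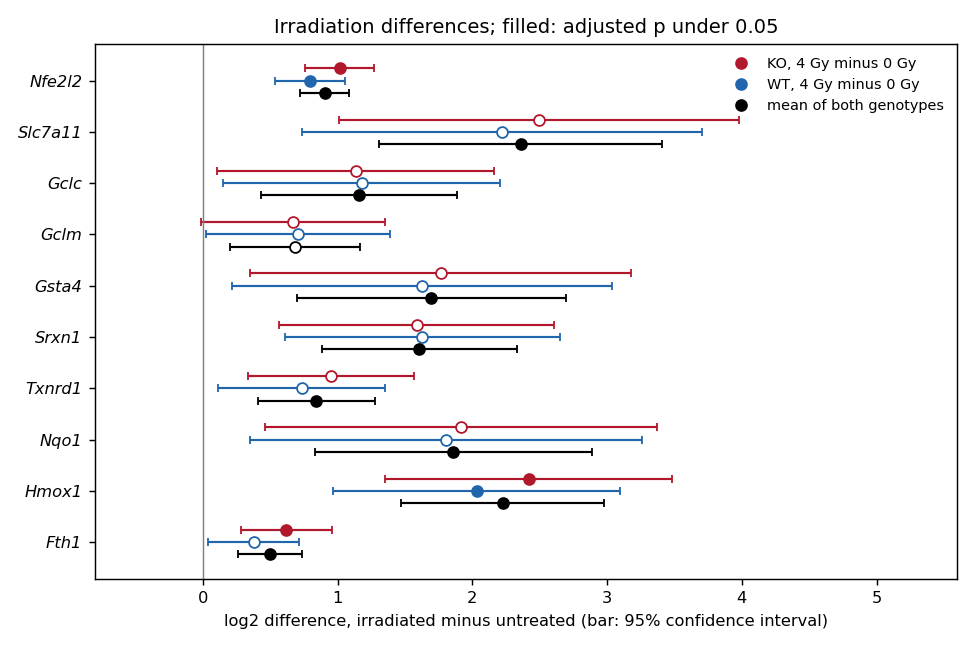
Log2 difference between irradiated and untreated cells (horizontal axis) for the 10 genes (vertical axis), in KO, in WT and as the mean of both, with 95% confidence intervals from limma as bars and filled points for an adjusted p under 0.05. All 30 differences are above 0, the intervals of Nfe2l2 and Fth1 are the narrowest, and Slc7a11, Hmox1 and Nqo1 have the largest mean differences.

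Nfe2l2, the gene of NRF2 on chromosome 2, rose evenly in all irradiated arrays. Its log2 values were 9.25, 9.43 and 9.41 in irradiated KO cells, against 8.42, 8.22 and 8.41 in untreated KO cells. In irradiated WT cells they were 9.13, 9.15 and 9.30, against 8.59, 8.36 and 8.24 in untreated WT cells. The lowest irradiated array thus stood above the highest untreated array in both genotypes, with no array apart from its group. The rise was 2.02-fold in KO (95% confidence interval 1.69 to 2.42, adjusted p = 0.00046 by limma) and 1.73-fold in WT (1.45 to 2.07, adjusted p = 0.0023). It passed the test under every alternative tried.

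Slc7a11, on chromosome 3, encodes the cystine and glutamate exchanger that brings cystine into the cell for glutathione. It had log2 values of 10.12, 12.09 and 12.36 in irradiated KO cells, against 8.67, 9.67 and 8.75 in untreated KO cells. In irradiated WT cells it had 9.79, 12.16 and 12.14, against 8.52, 9.98 and 8.93 in untreated WT cells. Irradiated arrays 2 and 3 were high in both genotypes, while array 1 was only 0.45 above the highest untreated KO array and lay below the highest untreated WT array. The differences were 2.49 (SE 0.68) in KO and 2.22 (SE 0.68) in WT on the log2 scale, and neither passed (limma adjusted p = 0.052 and 0.088). Their mean, a 5.13-fold rise (95% confidence interval 2.48 to 10.6), passed with an adjusted p of 0.0058. A second, dimmer probe set of the gene gave 4.02, 5.36 and 5.48 in irradiated KO cells, against 3.63, 3.57 and 4.06 in untreated KO cells. In WT cells it gave 4.09, 5.23 and 5.04 when irradiated, against 3.83, 3.85 and 3.61 untreated. Here too arrays 2 and 3 were the high ones, although most of these values lie below the brightness limit.

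Gclc (chromosome 9) and Gclm (chromosome 3) encode the catalytic and the modifier subunit of glutamate-cysteine ligase, the rate-limiting enzyme of glutathione synthesis. Gclc had 9.90, 11.65 and 11.57 in irradiated KO cells, against 9.40, 10.32 and 9.99 in untreated KO cells. It had 9.93, 11.19 and 11.50 in irradiated WT cells, against 9.34, 10.02 and 9.72 in untreated WT cells. Irradiated array 1 lay inside the range of the untreated arrays in both genotypes. Gclm behaved alike with a smaller spread, with 10.21, 11.13 and 11.28 in irradiated KO cells, against 9.83, 10.56 and 10.22 in untreated KO cells. In WT cells it had 10.25, 11.22 and 11.15 when irradiated, against 10.16, 10.45 and 9.88 untreated. For both genes, arrays 2 and 3 were above and array 1 was within the untreated values. Averaged over genotypes the difference was 1.16 (SE 0.33, limma adjusted p = 0.033) for Gclc and 0.69 (SE 0.22, adjusted p = 0.053) for Gclm. The Gclc call was lost without any 1 of 8 single arrays (irradiated arrays 2 or 3, or untreated arrays 1 or 3, of either genotype), with adjusted p of 0.055 to 0.082.

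Gsta4, on chromosome 9, encodes a glutathione transferase that acts on the lipid peroxidation product 4-hydroxynonenal. Its values were 7.47, 9.40 and 9.61 in irradiated KO cells, against 6.91, 7.44 and 6.84 in untreated KO cells. They were 7.24, 10.03 and 9.38 in irradiated WT cells, against 7.07, 7.78 and 6.93 in untreated WT cells. Irradiated array 1 stood just above the highest untreated array in KO, by 0.03, and inside the untreated range in WT. The mean rise was 3.24-fold (95% confidence interval 1.62 to 6.47, limma adjusted p = 0.025). It did not pass without any 1 of 7 single arrays (irradiated arrays 2 or 3 of either genotype, untreated KO arrays 1 or 3, untreated WT array 3), with adjusted p of 0.052 to 0.062.

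Srxn1, on chromosome 2, encodes sulfiredoxin, which restores over-oxidised peroxiredoxins. It had 8.25, 9.83 and 10.04 in irradiated KO cells, against 7.34, 8.22 and 7.82 in untreated KO cells. The WT values were 8.43, 9.79 and 9.85 when irradiated, against 7.49, 8.21 and 7.48 untreated. All irradiated arrays were above all untreated ones in each genotype, with array 1 the lowest of the irradiated. The difference was 1.59 (SE 0.47) in KO and 1.63 (SE 0.47) in WT, each with a limma adjusted p of 0.07, and 3.05-fold on average (95% confidence interval 1.85 to 5.02, adjusted p = 0.0061).

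Txnrd1, on chromosome 10, encodes the cytosolic thioredoxin reductase. Its values were 10.52, 11.44 and 11.72 in irradiated KO cells, against 10.04, 10.57 and 10.21 in untreated KO cells. They were 10.65, 11.39 and 11.36 in irradiated WT cells, against 10.24, 10.63 and 10.32 in untreated WT cells. Array 1 was again the lowest irradiated array, just above the untreated arrays in WT and inside their range in KO. The mean rise was 1.79-fold (95% confidence interval 1.32 to 2.43, limma adjusted p = 0.013).

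Nqo1, on chromosome 8, encodes a quinone reductase that uses NADH or NADPH and is the textbook reporter of NRF2 activity. It had 7.38, 9.97 and 9.41 in irradiated KO cells, against 5.90, 7.83 and 7.29 in untreated KO cells. WT cells had 8.03, 9.54 and 9.79 when irradiated, against 7.10, 7.96 and 6.89 untreated. The lowest value of all, 5.90, was that of untreated KO array 1, and irradiated array 1 of the same genotype lay below the highest untreated array. The mean rise was 3.63-fold (95% confidence interval 1.78 to 7.40, limma adjusted p = 0.018).

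Hmox1, on chromosome 8, encodes haem oxygenase 1, which opens the haem ring and frees its iron. It had 10.85, 12.38 and 12.21 in irradiated KO cells, against 8.82, 10.02 and 9.35 in untreated KO cells. In WT cells it had 10.71, 11.50 and 12.02 when irradiated, against 9.57, 10.07 and 8.49 untreated. Each irradiated array was above all untreated arrays of its genotype, array 1 included. The rise was 5.34-fold in KO (95% confidence interval 2.55 to 11.2, limma adjusted p = 0.013) and 4.09-fold in WT (1.95 to 8.56, adjusted p = 0.034). The KO call was lost without KO irradiated array 2 (adjusted p = 0.061), irradiated array 3 (0.055) or untreated array 1 (0.06). The WT call was lost without WT irradiated array 2 (adjusted p = 0.085), irradiated array 3 (0.14), untreated array 1 (0.057) or untreated array 3 (0.15). The mean of both, 4.67-fold, passed without any 1 of the 12 arrays.

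Fth1, on chromosome 19, encodes the ferritin heavy chain, which oxidises iron for storage. It was the brightest of the 10, with 12.86, 13.19 and 13.18 in irradiated KO cells, against 12.28, 12.72 and 12.37 in untreated KO cells. WT cells had 12.67, 12.97 and 13.07 when irradiated, against 12.47, 12.72 and 12.41 untreated. The KO groups did not overlap, and WT irradiated array 1 lay below the highest untreated array. The rise was 1.54-fold in KO (95% confidence interval 1.22 to 1.94, limma adjusted p = 0.035) and the WT difference was 1.30-fold (1.03 to 1.64, adjusted p = 0.20). The KO call was lost without KO irradiated array 2 (adjusted p = 0.13), irradiated array 3 (0.12), untreated array 1 (0.14) or untreated array 3 (0.11), and with only the KO arrays in the fit (0.077). Fth1 has processed pseudogenes in the mouse, and whether the probes read them was not tested.

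The genotypes did not differ by the test in any of the 10 genes. KO minus WT lay between -0.20 and 0.41 on the log2 scale in irradiated cells and between -0.31 and 0.21 in untreated cells. The lowest unadjusted p by limma was 0.17 and 0.65, and 0 of the 10 genes passed either test. Among all genes, 0.00652% passed in irradiated cells and 0.00652% in untreated cells, which is Zc3hc1 alone. At an unadjusted p under 0.05 0 of the 10 passed, against 3.07% of all genes (471) in irradiated cells and 2.15% (330) in untreated cells. The difference of the irradiation effects, KO minus WT, lay between -0.05 and 0.39, with 0 of the 10 called, 0% of all genes called, and 1.53% of all genes (235) at an unadjusted p under 0.05, none of them among the 10. These tests leave room for sizeable differences in the variable genes: the 95% confidence interval of the KO minus WT difference in irradiated cells was -1.32 to 1.64 for Slc7a11 and -0.66 to 1.47 for Hmox1. For Nfe2l2 it was -0.09 to 0.43.

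Within the irradiated groups, 9 of the 10 genes differed by array number more than Nfe2l2 did. The mean of irradiated arrays 2 and 3 exceeded array 1 by 2.10 in KO and 2.36 in WT for Slc7a11, and by 2.04 in KO and 2.46 in WT for Gsta4. For Nqo1 the excess was 2.31 in KO and 1.64 in WT, and for Hmox1 1.45 in KO and 1.05 in WT. The smallest were those of Fth1, 0.32 in KO, and Nfe2l2, 0.18 in KO and 0.10 in WT. Both arrays 2 and 3 were above array 1 in both genotypes for all 10 genes, as for 15.5% of all genes. They were so by more than 0.5 for 8 of the 10 (all but Fth1 and Nfe2l2), against 0.932% of all genes, and by more than 1 for 5 (Slc7a11, Gsta4, Nqo1, Srxn1 and Gclc), against 0.195%. The gap that a gene reached in both genotypes ranked Slc7a11 at 4, Gsta4 at 5 and Nqo1 at 14 among the 15348 genes, while Fth1 ranked 371 and Nfe2l2 2094. In the untreated arrays the same rule held for 3 of the 10 genes, against 14.7% of all genes, and by more than 0.5 for 0 of the 10, against 0.254%. There array 2 was the highest of its group for 9 of the 10 genes in KO and for the same 9 in WT, all but Nfe2l2, against 14.3% of all genes with array 2 highest in both genotypes.

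**Figure D3:**
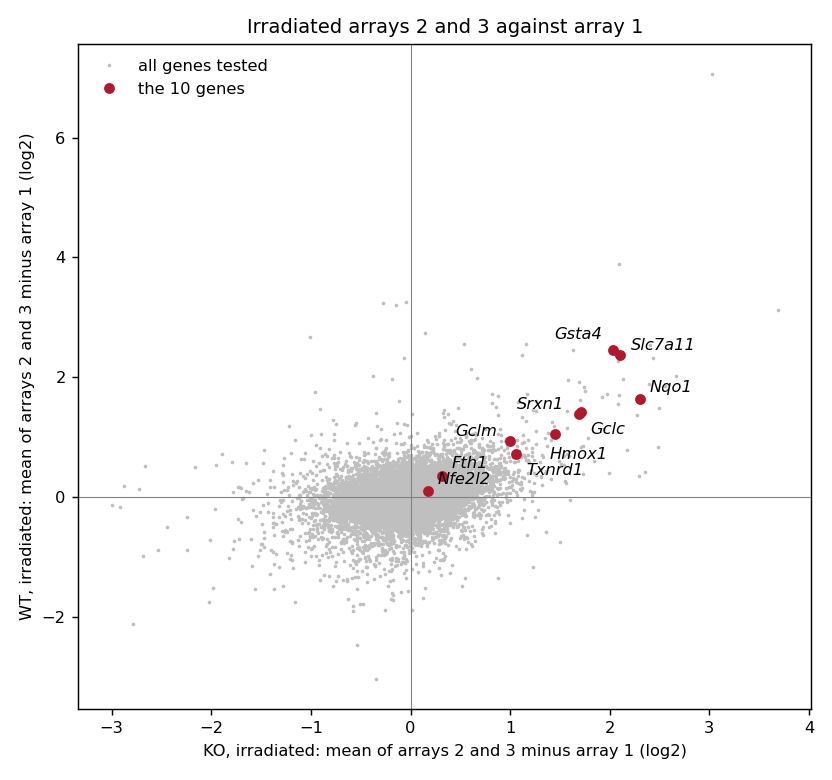
Mean of irradiated arrays 2 and 3 minus irradiated array 1, in KO (horizontal axis) and WT (vertical axis), log2, for the 15348 genes tested (grey) and the 10 genes (red). Slc7a11, Gsta4 and Nqo1 lie far from the bulk of genes in both genotypes, and Nfe2l2 lies within it.

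The medians of 8 known targets of p53 differed less between the same arrays. Against the mean of the untreated arrays of their genotype, the 9 genes other than Nfe2l2 had a median log2 difference of 0.41 in KO irradiated array 1, against 2.04 in array 2 and 2.25 in array 3. In WT the medians were 0.25 in array 1, 2.06 in array 2 and 2.12 in array 3. The 8 targets of the radiation-activated factor p53, chosen with earlier results known (Cdkn1a, Mdm2, Ccng1, Phlda3, Sesn2, Zmat3, Bbc3 and Trp53inp1) had medians of 1.53, 1.91 and 1.95 in the 3 KO arrays and 1.5, 1.90 and 1.72 in the WT arrays. All 8 were above the untreated mean in each of the 6 irradiated arrays. Their median too was lowest in array 1 in both genotypes. Mdm2, Phlda3, Sesn2, Bbc3 and Trp53inp1 were each lowest in array 1 in both genotypes, as were 15.5% of all genes. Cdkn1a, Zmat3 and Ccng1 were not. Single targets thus differed between arrays in both directions. In KO arrays 1, 2 and 3, Mdm2 had 1.04, 1.90 and 2.06 and Sesn2 had 1.16, 1.97 and 2.19. Zmat3 had 1.90, 1.11 and 1.18 there, and Ccng1 had 2.01, 1.91 and 1.85. Nfe2l2 was above the untreated mean by 0.90 in KO array 1 and 0.73 in WT array 1, and by 0.75 to 1.08 in the other irradiated arrays. What the array number stands for was not tested, and the labels do not say.

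**Figure D4:**
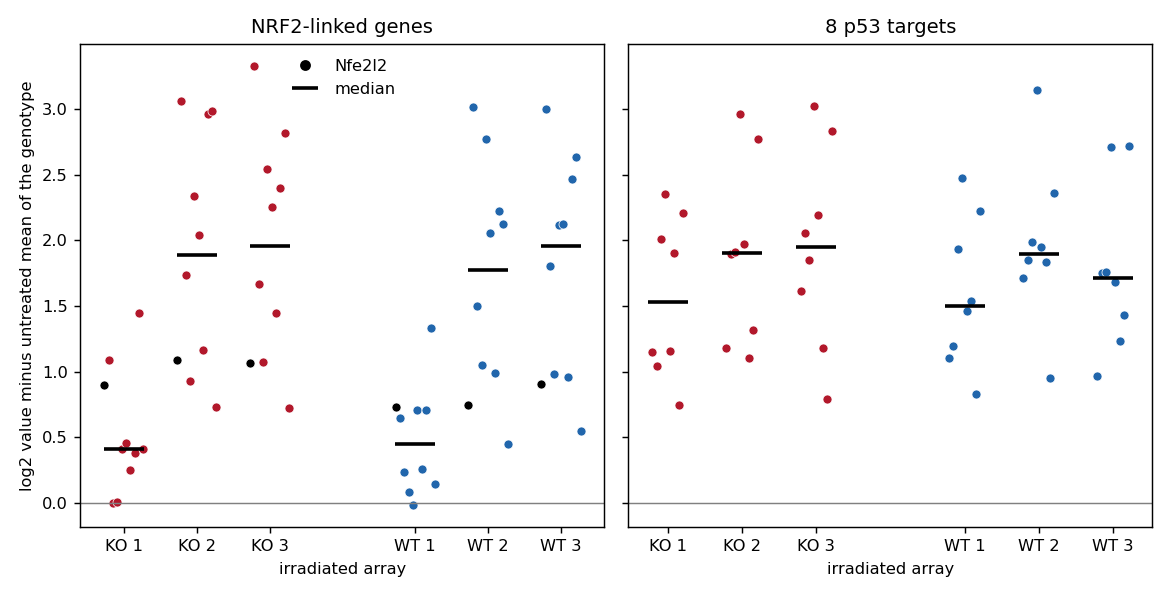
Log2 value in each irradiated array minus the mean of the untreated arrays of its genotype (vertical axis), by array (horizontal axis), for the 10 genes on the left (Nfe2l2 in black) and 8 p53 targets on the right, with lines for medians. The medians of the 10 genes are 0.41 in KO array 1 and 0.45 in WT array 1 and 1.78 to 1.96 in the others, while those of the p53 targets are 1.5 to 1.95 throughout.

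Leaving out the irradiated arrays numbered 1, a choice made with these arrays known to be low for these genes, left 10 of the 10 genes called in KO and 9 in WT, all but Fth1 (limma adjusted p = 0.077). Calls over all genes rose in this fit too, to 11.1% in KO, against 5.94% with all arrays, and to 7.47% in WT, against 4.83%. The difference of Slc7a11 was then 3.20 in KO and 3.01 in WT, that of Hmox1 2.90 in KO and 2.38 in WT, and that of Gsta4 2.44 in KO and 2.45 in WT. Nfe2l2 moved little, to 1.07 in KO and 0.83 in WT. In WT cells, irradiated and untreated arrays of equal number deviated together over all genes, so the fit with the number as a block within genotype stands beside the main one. That fit blocked the KO arrays by number too, and its estimate of spread was shared by both genotypes. In this block fit 7 of the 10 genes rose in WT, against 8.0% of all genes called in either direction. Beside Nfe2l2 and Hmox1 these were Slc7a11 (adjusted p = 0.013), Srxn1 (0.01), Nqo1 (0.0096), Gclc (0.021) and Txnrd1 (0.048). Gsta4 (0.066), Gclm (0.074) and Fth1 (0.11) did not pass. Within pairs of equal number, WT Slc7a11 was higher by 1.27, 2.17 and 3.22, Hmox1 by 1.13, 1.43 and 3.53, and Gsta4 by 0.17, 2.25 and 2.45 in irradiated cells.

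The within-group spread set these genes apart from most others. The standard deviation within groups, pooled over the 4 groups, was 1.03 on the log2 scale for Slc7a11, 1.01 for Nqo1 and 0.98 for Gsta4, which ranked 32, 38 and 42 from the highest among 15348 genes. The median gene had 0.182. Nfe2l2, with 0.127, was below the median gene, and Fth1, with 0.198, was near it. Over the 12 arrays the levels of the 9 genes other than Nfe2l2 correlated with each other at 0.883 to 0.989 (36 pairs). Their deviations from the group means correlated at 0.776 to 0.986, so they went up and down together within groups as well. Nfe2l2 correlated with the 9 at 0.699 to 0.903 in levels and at 0.098 to 0.424 in deviations. These are descriptions of 12 arrays that share their irradiation contrast and array processing.

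The genes most like the leading members in pattern were taken as the 3 highest correlations over the 12 arrays. Genes with a provisional symbol, such as those starting with Gm or ending in Rik, were left out first. For the levels of Slc7a11 they were Abcc1 (0.990), a glutathione conjugate exporter, Srxn1 (0.989) and Txnrd1 (0.982). For those of Srxn1 they were Slc7a11 (0.989), Txnrd1 (0.987) and Acss2 (0.984), an acetyl-CoA synthetase. For those of Hmox1 they were Rnf19a (0.974), Tnfsf4 (0.974) and Slc40a1 (0.972), the last of which encodes ferroportin, the iron exporter. In deviations from group means, Slc7a11 was most like Abcc1 (0.989), Tbcel (0.983) and Keap1 (0.981), and Srxn1 most like Mafg (0.990), a small MAF partner of NRF2, Txnrd1 (0.986) and Sin3b (0.986). Hmox1 was most like Nmrk1, Mir692-1 and Ahnak2, each at 0.941. Keap1, the inhibitor of NRF2, had an irradiation difference of 0.24 on average (limma adjusted p = 0.26).

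Among the regulators and partners of NRF2, 12 of 13 were tested and 2 rose and 1 fell in the average of both genotypes. In that average 6.9% of all genes rose and 9.6% fell. Sqstm1, an adaptor that sequesters KEAP1, rose by 1.18 in KO (limma adjusted p = 0.0017) and 0.82 in WT (adjusted p = 0.015). Bach1, the competing repressor, rose by 0.73 on average (adjusted p = 0.010), and Nfe2, an erythroid and megakaryocytic relative of NRF2, fell by 0.52 (adjusted p = 0.021). The median of this list was 0.19, against 0.00 for all genes.

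Of 30 further genes of glutathione synthesis and conjugation, 24 were tested and 4 rose (Gss, Gsta3, Abcc1 and Abcc4), with 1 lower, on average, and 0 passed within either genotype. The shares of all genes were 6.9% higher and 9.6% lower on average. Gss, glutathione synthetase, was higher by 0.53 (limma adjusted p = 0.0075) and Abcc1 by 1.12 (adjusted p = 0.019). Gsta3, a glutathione transferase, had 5.35, 6.94 and 7.26 in irradiated KO cells, against 5.06, 5.05 and 5.15 in untreated KO cells. It had 5.15, 6.80 and 7.04 in irradiated WT cells, against 5.09, 5.42 and 5.40 in untreated WT cells (adjusted p of the mean 0.030). It too was high in irradiated arrays 2 and 3 and not in array 1. Its untreated KO values lay below the brightness limit and its untreated WT values near it. Gpx1, a glutathione peroxidase, fell by 0.53 (adjusted p = 0.0088).

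The thioredoxin, peroxiredoxin and superoxide genes (14 of 17 tested) had 1 rise, Sesn2, and 2 falls on average, against 6.9% and 9.6% of all genes. Sesn2, a stress-induced sestrin also known as a p53 target, rose in both genotypes, by 1.77 in KO and 1.70 in WT. Txnrd2, the mitochondrial thioredoxin reductase, fell by 0.31 (limma adjusted p = 0.0076) and Prdx2 fell by 0.47 (adjusted p = 0.048). Genes of NADPH supply and detoxification (19 of 22 tested) had 6 rises and 0 falls on average, against the same shares of all genes, with a median of 0.57. Ephx1, an epoxide hydrolase, rose by 2.58 in KO and 2.61 in WT, and Cbr3, a carbonyl reductase, by 2.39 in KO (adjusted p = 0.0028) and 1.75 in WT (adjusted p = 0.018). Every untreated value of Cbr3, 4.07 to 4.69, lay below the brightness limit. Cbr3 thus entered the test only through its irradiated arrays, which limits what its p-values show. Me1 and Idh1, which make NADPH, were each higher by 1.08 on average (adjusted p = 0.0066 and 0.0072). Idh1 did not share the array pattern in KO, where irradiated array 1 was its highest at 10.45, against 9.16 and 9.18 in arrays 2 and 3. For Ephx1 the irradiated arrays had 7.69, 9.13 and 8.53 in KO and 8.53, 8.23 and 8.39 in WT, and array 1 was the highest of the WT arrays.

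Iron and haem genes moved in both directions. Of 37 genes 31 were tested, and on average 4 rose (Slc40a1, Flvcr1, Slc48a1 and Heph) and 6 fell (Tfrc, Slc25a37, Alad, Ppox, Abcb10 and Fbxl5), with a median of -0.04. The shares of all genes were 6.9% and 9.6%. Heph lay near the brightness limit in every array, at 5.07 to 5.56. Its mean difference was 0.24, and it was not called in KO. Slc48a1, a haem transporter, rose by 0.97 in KO (limma adjusted p = 0.05). Its mean difference was 0.94 (adjusted p = 0.0044). Slc40a1 rose by 2.17 in KO (adjusted p = 0.045) and its WT difference was 1.84 (adjusted p = 0.092). Slc25a37, the mitochondrial iron importer mitoferrin 1, fell by 0.72 in KO (adjusted p = 0.034) and by 0.79 in WT (adjusted p = 0.024). Ppox and Alad, enzymes of haem synthesis, fell by 0.66 and 0.49 on average (adjusted p = 0.0022 and 0.0025). Markers of erythroid cells were read beside these falls: 8 of 12 were tested and 5 fell on average, against 9.6% of all genes. Car2 was not called and had higher means after irradiation, 10.05 against 9.67 in KO and 10.21 against 9.91 in WT. The mean log2 level of the erythroid list was 6.16 to 6.45 in irradiated KO and 6.19 to 6.37 in irradiated WT cells. It was 7.02 to 7.26 in untreated KO and 6.67 to 6.98 in untreated WT cells. The part of erythroid cells in the fall of the iron and haem genes was not tested.

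Slc7a11 is also a target of ATF4, the factor of the amino acid response, so 23 genes of that response were counted, and all were tested. On average 3 rose (Ddit3, Ddit4 and Sesn2) and 2 fell (Vldlr and Pck2), against 6.9% and 9.6% of all genes, and the median was 0.05. Ddit4, an inhibitor of mTOR signalling, rose by 1.03 in KO and 0.97 in WT, Vldlr fell by 1.36 and Pck2 by 0.45. Over the 5 lists without ATF4, 100 of 119 genes were tested, and 17.0% rose and 10.0% fell on average, against 6.9% and 9.6% of all genes. Within KO 7 rose and 3 fell, against 2.74% and 3.2% of all genes, and within WT 5 rose and 1 fell, against 2.13% and 2.7%. None of the 100 passed in the comparisons of genotypes or in the difference of the irradiation effects.

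Hmox1, Slc40a1 and Fth1 are high in macrophages, so markers of monocytes and macrophages were read beside them. The list's mean log2 level over 15 genes was 6.51 to 6.92 in irradiated KO cells and 6.60 to 6.71 in irradiated WT cells. It was 6.48 to 6.78 in untreated KO cells and 6.58 to 6.64 in untreated WT cells. In the average of the genotypes 6.9% of all genes rose and 9.6% fell. Of 16 markers 14 were tested and 1 was called, Spic, a transcription factor of red pulp macrophages that haem induces. It had 7.59, 8.49 and 8.31 in irradiated KO cells, against 5.62, 6.43 and 6.63 in untreated KO cells. In WT cells it had 6.80, 8.74 and 8.32 when irradiated, against 6.47, 6.64 and 5.55 untreated (mean difference 1.82, limma adjusted p = 0.0026). Irradiated array 1 was again the lowest of its group. Levels differed widely within the list. Ly6c2 averaged 10.52 over the 12 arrays, Cd68 8.54, Csf1r 8.40, Itgam 8.05 and Lyz2 6.63, and these 5 were above the brightness limit in all 12 arrays. Csf1r and Itgam had lower means after irradiation in both genotypes. For Csf1r these were 7.94 against 8.78 in KO and 8.06 against 8.82 in WT, and for Itgam 8.0 against 8.38 and 7.59 against 8.22. Ly6c2 and Lyz2 had higher means in both genotypes, Cd68 in KO only, and none of these 5 was called. C1qa, Marco and Vcam1, which averaged 6.07, 5.94 and 5.92, were above the limit in all 12 arrays too, and Fcgr1, with 5.57, in 11. Adgre1, C1qb, C1qc and Cd163 averaged 5.35 to 5.54, close to the limit, and Mrc1, with 5.09, was above it in 2 of 12 arrays. The part of such cells in the values of the 10 genes was not tested.

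Markers of 2 other lineages differed between arrays of a group. Granulocyte markers had no calls. Their mean log2 level was 8.81, 8.32 and 8.07 in irradiated KO cells, against 8.77, 7.76 and 8.20 in untreated KO cells. Irradiated WT cells had 7.83, 8.56 and 9.01, against 7.68, 8.62 and 9.10 in untreated WT cells. Array 1 was the highest in KO and the lowest in WT at both doses, so in irradiated cells the order ran with that of the 10 genes in WT and not in KO. Markers of B and T cells, 5 of 10 tested, had no calls either. Their mean level over 8 genes was 5.54, 5.92 and 6.94 in irradiated KO cells, against 5.77, 6.81 and 5.97 in untreated KO cells. For irradiated WT cells it was 5.48, 5.85 and 5.71, against 5.46, 6.07 and 5.69 in untreated WT cells. Irradiated arrays 2 and 3 were thus above array 1 in both genotypes, and untreated array 2 was the highest in both, as for 9 of the 10 genes. In this list Cd79a, Cd79b and Ebf1, genes of B cells, were above the brightness limit in all 12 arrays, and the T cell genes Cd3e, Cd3g, Cd4 and Cd8a in 0 to 3. The part of either lineage in the values of the 10 genes was not tested.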

How the data were processed

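Expression was measured on Affymetrix arrays in 12 samples, 4 groups of 3, assigned by their titles. The authors deposited log2 expression values, 1 for each of 41345 probe sets and array. Per the submitters' processing notes they used oligo, an R package, and RMA, a method of background correction, quantile normalization and probe summary. No version is given in the sources used here. RMA makes the arrays' distributions alike, so a shift shared by all genes would not be seen, and fold changes are differences of log2 values. Every column belonged to a sample, and 0 columns were unassigned.

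The platform annotation gave 1 symbol to 23521 probe sets, several to 1814 (not used) and none to 16010. RefSeq gene IDs matched 23328. The brightest probe set stood for each of 22180 genes. Genes above the 40th percentile of the table, 5.29, in at least 3 arrays were tested, which kept 15348 and removed 6832. limma 3.58.1 in R 4.3.3 (lmFit, eBayes) fitted the 4 group means over all 12 arrays, and p-values are two-sided, adjusted by Benjamini-Hochberg over all genes tested, with a threshold of 0.05. The script was tested on simulated data. The median standard error of a difference within a genotype or dose was 0.147, a half-width of the 95% interval of 0.319. Figures and descriptions used Python 3.11.15, numpy 2.4.6, pandas 2.3.3 and matplotlib 3.10.9.

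Arrays share numbers across groups. Deviations from group means, irradiated against untreated of the same number, correlated at 0.491, 0.476 and 0.42 over genes in WT, where the numbers were therefore taken to pair the arrays. In KO they correlated at 0.474 for number 1, -0.239 for number 2 and -0.122 for number 3. Irradiated KO array 2 correlated with untreated array 3 at 0.517, and irradiated array 3 with untreated array 2 at 0.438. Pairing by number was therefore not relied on in KO, and no other pairing was tried. The block fit within genotype still used the numbers in KO as in WT. Its WT p-values thus rest on a spread estimated over both genotypes. The 12 alternatives concerned the brightness filter, scaling, the variance prior, the arrays in the fit, the block, the probe set and arrays left out. The 10 genes, the lists beside them, the p53 targets and the tests were chosen with earlier results of these data known. Named in the text are the 10 genes, up to 4 genes of each other list past the test by smallest p, the 3 genes most like Hmox1, Slc7a11 and Srxn1 in each measure, and Zc3hc1. The remaining names in the lists' counts, Slc40a1 with its values within each genotype, Spic and the other markers were named after their values were seen.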

Additional observations from a re-analysis of the deposited data

How the results depend on the processing

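Alternatives were run for the 10 genes. Over 680 values of single genes and alternatives for the irradiation effects, 574 kept their side of the threshold, 77 passed only under the alternative, 29 passed only in the main setting, and 0 changed sign. In KO, 3 genes were called. With the replicate block over all arrays 9 were, with the replicate block within genotype 9, without the arrays numbered 1 of all groups 9 and without the irradiated arrays numbered 1 10. Leaving out 1 array at a time gave 1 to 10: 10 without KO irradiated array 1, 6 without WT irradiated array 1, and 1 without KO irradiated array 2, KO irradiated array 3 or KO untreated array 1. Of all genes, 10.2%, 6.12%, 3.05%, 3.47% and 3.15% were called in KO in these fits, in that order, against 5.94% in the main fit. The share was 6.66% without the arrays numbered 1 of all groups and 7.97% with the replicate block over all arrays. In WT, 2 genes were called, 1 with a trended and robust prior (Hmox1 then had an adjusted p of 0.053), 7 with the replicate block, 7 with the replicate block within genotype, 9 without the arrays numbered 1 and 9 without the irradiated arrays numbered 1. Leaving out 1 array gave 1 to 5: 5 without WT irradiated array 1, 4 without KO irradiated array 1, and 1 without WT irradiated arrays 2 or 3 or WT untreated arrays 1 or 3. Of all genes, 4.15%, 6.78%, 3.64%, 2.28%, 4.97% and 2.05% were called in WT in these fits, in that order, against 4.83% in the main fit. The share was 5.88% without the arrays numbered 1 of all groups and 7.01% with the replicate block over all arrays. In the average of the genotypes 9 were called, and 7 to 10 with 1 array left out. Of all genes 16.5% were called there, and 12.1% to 22.2% with 1 array left out. In KO the block called all but Gclm (adjusted p = 0.085 within genotype), although only number 1 correlated best with its own number there, and numbers 2 and 3 correlated crosswise, at 0.517 and 0.438. Fth1 in KO was lost without all arrays numbered 1 (adjusted p = 0.054) and with only the arrays compared (0.077). Over all genes, 911 were called in KO, 1390 with the block within genotype and 1702 without the irradiated arrays numbered 1. In WT 742 were called, 1228 with the block within genotype and 1147 without the irradiated arrays numbered 1. Calls between genotypes and of the difference of the irradiation effects were 0 for the 10 genes under all alternatives, and the sign of these uncalled differences changed in some alternative for 7 genes in irradiated cells, 8 in untreated cells and 7 in the difference of effects. The cause of these changes was not tested. Precision is limited by 3 arrays in a group.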

Other observations

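Other genes shared the pattern of irradiated arrays 2 and 3 above array 1 in both genotypes. Ranked by the smallest such gap over both genotypes among 15348 genes, the first 3 were an immunoglobulin kappa variable gene (2.94 on the log2 scale), Mir146 (2.80) and Mc5r (2.18), none of which is a textbook NRF2 target. Of the first 40 ranks, 6 were held by the 10 genes of the report. Next among the others came Ampd3 at rank 6 (gap 1.90), Tbcel at rank 7 (1.88) and A530064D06Rik at rank 8 (1.76). Il1f9 followed at rank 9 (1.71), Plpp3 at rank 10 (1.65) and Mir34a at rank 11 (1.64). Some genes of glutathione, haem or iron function lay among them, picked by name after the ranks were seen and not tested as a group: Gsta3 at rank 12 (1.59), Blvrb, the biliverdin reductase, at rank 16 (1.5), Slc40a1 at rank 25 (1.15), Abcc1 at rank 30 (1.08) and Gsr, the glutathione reductase, at rank 40 (0.88). The opposite pattern, arrays 2 and 3 below array 1 in both genotypes by more than 0.5, was met by 0.528% of all genes, against 0.932% for the pattern itself.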
